A study of Mus musculus with 8 samples.

Results

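Aldh1a2 and 6 other genes of the retinoic acid pathway were examined in mouse regulatory T (Treg) cells, 7 of the 22432 genes in the deposited table. Aldh1a2 was chosen by its measured difference in comparisons that involve Nfkb2-KO cells, in an earlier analysis of the same libraries. Rdh10, Dhrs3, Rara, Rarg, Rxra and Rxrb were added by name as genes of the same pathway. For these 7 genes every comparison that involves the Nfkb2-KO libraries is therefore given as a description, without a test. All 7 passed the filter on low values, and no threshold on a value separates them from other genes.

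The series asked how losing the alternative NF-kB pathway alters the Treg transcriptome. Treg cells are the Foxp3+ T cells that hold immune responses in check, and RelB and the Nfkb2 product p100/p52 are the subunits of that pathway. RNA from 8 libraries was sequenced, 2 for each of 4 genotypes on the C57Bl/6 background. WT cells carried Foxp3-CRE-YFP alone, a Cre recombinase and yellow fluorescent reporter driven by Foxp3, and all other groups carried it as well. RelB-KO cells added RelB F/F alleles, Nfkb2-KO cells added nfkb2 F/F alleles, and DKO cells carried both pairs of floxed alleles, so deletion depends on Cre made in Foxp3-expressing cells. YFP+ cells from spleen and lymph nodes, pooled, were stimulated for 16 h with anti-CD3 (5 µg/ml), anti-CD28 (1 µg/ml), agonist anti-OX40 (2 µg/ml) and IL-2 (10 ng/ml). The labels give neither an age nor the animals behind each replicate. The p-values therefore measure only the spread between these libraries, and the labels do not say whether it is technical. In WT it is not technical alone, since the 2 libraries differ in the sex-linked transcripts Xist and Ddx3y, given below.

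Retinoic acid is made from vitamin A in steps. Retinol dehydrogenases such as Rdh10 turn retinol into retinal, Dhrs3 turns retinal back into retinol, and retinaldehyde dehydrogenases of the Aldh1a family oxidise retinal irreversibly to retinoic acid. Retinoic acid then binds nuclear receptors (Rara, Rarb, Rarg) that act as dimers with the retinoid X receptors (Rxra, Rxrb, Rxrg), while Cyp26 enzymes break it down. In the gut immune system Aldh1a2 is best known as the enzyme of retinoic acid-producing dendritic cells, whose product favours Foxp3 expression and gut homing of T cells.

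Values are deposited log2 expression values. The file header calls them RPKM, but their unlogged sums, 18.16 to 19.71 M per library, are not those of RPKM, and genes at very low levels have nearly 1 value in all libraries. Such shrinkage would make the differences and folds printed here smaller than those of counts. The design names 30 M reads per sample, and the depth reached in each library is unknown. Relb was between 10.49 and 10.84 in the 4 libraries of WT and Nfkb2-KO and between 6.35 and 7.08 in the 4 that should lack it. Nfkb2 was between 12.31 and 12.80 in WT and RelB-KO, at 8.75 and 8.79 in Nfkb2-KO, and at 9.29 and 9.85 in DKO. In DKO it was thus 0.80 above Nfkb2-KO (adjusted p = 0.1836, limma, and 0.03787 with the replicate block). Relb in DKO was 0.47 above RelB-KO (adjusted p = 0.9996, limma). Comparisons of DKO with the single knockouts carry this limit. The T cell markers Cd3e, Cd4, Foxp3, Il2ra and Ctla4 were each at 12.61 log2 or above in all 8 libraries. WT replicate 1 stood apart: its Xist value was 8.17 where the other 7 libraries had 14.61 to 15.13, and its Ddx3y value was 11.60 where they had 4.25 to 4.35. For the 7 genes, differences from WT without that library are given as well.

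In these RNA values the 2 Nfkb2-KO libraries stood above the other 6 for Aldh1a2, Rara and Rarg, and also for Stra6, a membrane receptor for retinol uptake described among the carriers. The same held for Crabp2, which has no window in the table used, and for Nrip1, a co-repressor whose windows are not shown. How many of all tested genes had this pattern was not counted, so nothing is read from the number of such genes. For the first 4 genes 1 promoter window of each is shown, chosen after the motif search: 250 bases before to 50 bases after a transcription start, from RefSeq (GRCm38.p6), 5′ to 3′ on the gene's strand. Windows of 6 of the 7 genes were found, all but Rdh10, 14 windows in all, since several genes have more than 1 start. Capitals mark matches to the kappaB consensus site in Rara and Stra6, and the AGGTCA half-site bound by retinoic acid receptors, here on the opposite strand, in Rarg. Aldh1a2 has neither motif in its window.
Aldh1a2, chr9:71215539-71215838, plus strand: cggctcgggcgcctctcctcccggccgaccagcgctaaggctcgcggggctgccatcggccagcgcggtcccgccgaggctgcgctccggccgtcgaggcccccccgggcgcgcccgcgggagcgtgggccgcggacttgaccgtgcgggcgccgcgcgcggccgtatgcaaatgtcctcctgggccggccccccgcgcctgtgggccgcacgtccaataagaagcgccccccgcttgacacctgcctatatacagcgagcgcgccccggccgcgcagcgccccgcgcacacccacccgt
Rara, chr11:98937468-98937767, plus strand: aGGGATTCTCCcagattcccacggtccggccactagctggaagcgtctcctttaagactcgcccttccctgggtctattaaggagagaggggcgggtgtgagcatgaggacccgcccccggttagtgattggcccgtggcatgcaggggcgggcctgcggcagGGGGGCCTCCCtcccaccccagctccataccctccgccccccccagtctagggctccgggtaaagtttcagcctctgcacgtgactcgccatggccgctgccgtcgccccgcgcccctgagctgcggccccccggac
Rarg, chr15:102257473-102257772, minus strand: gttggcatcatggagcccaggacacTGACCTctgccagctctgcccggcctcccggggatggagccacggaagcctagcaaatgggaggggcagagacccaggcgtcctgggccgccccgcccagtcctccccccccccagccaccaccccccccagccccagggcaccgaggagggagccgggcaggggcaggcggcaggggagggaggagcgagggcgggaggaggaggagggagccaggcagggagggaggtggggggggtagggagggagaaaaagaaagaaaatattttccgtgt
Stra6, chr9:58129099-58129398, plus strand: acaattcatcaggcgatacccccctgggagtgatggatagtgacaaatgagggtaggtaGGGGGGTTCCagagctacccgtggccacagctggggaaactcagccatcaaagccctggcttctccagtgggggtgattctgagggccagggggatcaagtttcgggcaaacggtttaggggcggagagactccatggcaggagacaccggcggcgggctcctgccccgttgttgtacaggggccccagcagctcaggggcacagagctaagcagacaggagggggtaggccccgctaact
Both strands of each window were searched. In the Rara window the match GGGATTCTCC begins at position -249 from the start, and the matches GGGGGCCTCC at -87 and GGGGCCTCCC at -86 overlap each other, the last also matching on the opposite strand. The Stra6 match GGGGGGTTCC begins at -191, and the Rarg half-site begins at -225. Stra6 has 4 windows, and only the window shown holds a kappaB match.

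Over all windows of the 7 genes, 5 of 14 held a kappaB consensus match, in 2 genes (Rara and Rxrb), and 2 of those 5 windows overlap each other. Of all 32851 windows in the RefSeq table, 8.46% held one, and of all 27025 genes 9.55%. The AGGTCA half-site was found in 3 of the 14 windows, 1 each of Rara, Rarg and Rxra, against 16.3% of all windows. The paired elements that retinoic acid receptor dimers bind, direct repeats of the half-site named DR1, DR2 and DR5, were found in none of the 14 windows, and in 0.222%, 0.268% and 0.0974% of all windows. Rxrb, which has a kappaB match in each of its 2 windows, showed nearly the same level in all genotypes. These matches describe letters in these windows, and no binding was measured.

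Aldh1a2 makes retinoic acid from retinal and lies on chromosome 9 (71215789 to 71296243, plus strand, mm10), where the annotation also places Gm48124. Its log2 value was 6.40 and 6.29 in WT replicates 1 and 2, 5.87 and 6.12 in RelB-KO, 8.49 and 8.72 in Nfkb2-KO, and 5.73 and 5.67 in DKO. The Nfkb2-KO libraries were far above all others, and the 4 genotypes followed in the order Nfkb2-KO, WT, RelB-KO, DKO with no overlap between neighbouring genotypes. The gap between the lowest WT and the highest RelB-KO library was smaller than the spread within RelB-KO.

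The mean of Aldh1a2 was 8.61 ± 0.16 (SD, n = 2) in Nfkb2-KO and 6.35 ± 0.07 in WT, a difference of 2.26 ± 0.12 (SE), or 4.80-fold. In DKO, where RelB is lost as well, it averaged 5.70 ± 0.05, which is 2.91 ± 0.12 log2 units (7.52-fold) below Nfkb2-KO. Within replicate numbers the Nfkb2-KO libraries exceeded WT by 2.10 and 2.43. Loss of Nfkb2 thus went with 2.26 log2 units more Aldh1a2 where RelB was present and 0.30 less where RelB was deleted. These values chose the gene and carry no test. The authors' deposited table gives a log2 fold change of 2.513 for Nfkb2-KO against WT.

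The comparisons without Nfkb2-KO were tested. The WT and DKO libraries also entered the comparisons that chose Aldh1a2, so these tests are not independent of that choice. Aldh1a2 was 0.65 ± 0.12 lower in DKO than in WT (1.57-fold), with both DKO libraries below both WT libraries, but it did not pass (adjusted p = 0.8613, limma; unadjusted p = 0.00137; adjusted p = 0.1185 with the replicate block). The authors' deposited table gives -0.853 with an adjusted p of 0.00109 for that comparison. RelB-KO was 0.35 ± 0.12 below WT (adjusted p = 0.9999), and DKO was 0.30 ± 0.12 below RelB-KO (adjusted p = 0.9996), by the same model. Without WT replicate 1 the differences from WT were 2.31 in Nfkb2-KO, -0.60 in DKO and -0.30 in RelB-KO.

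**Figure D1:**
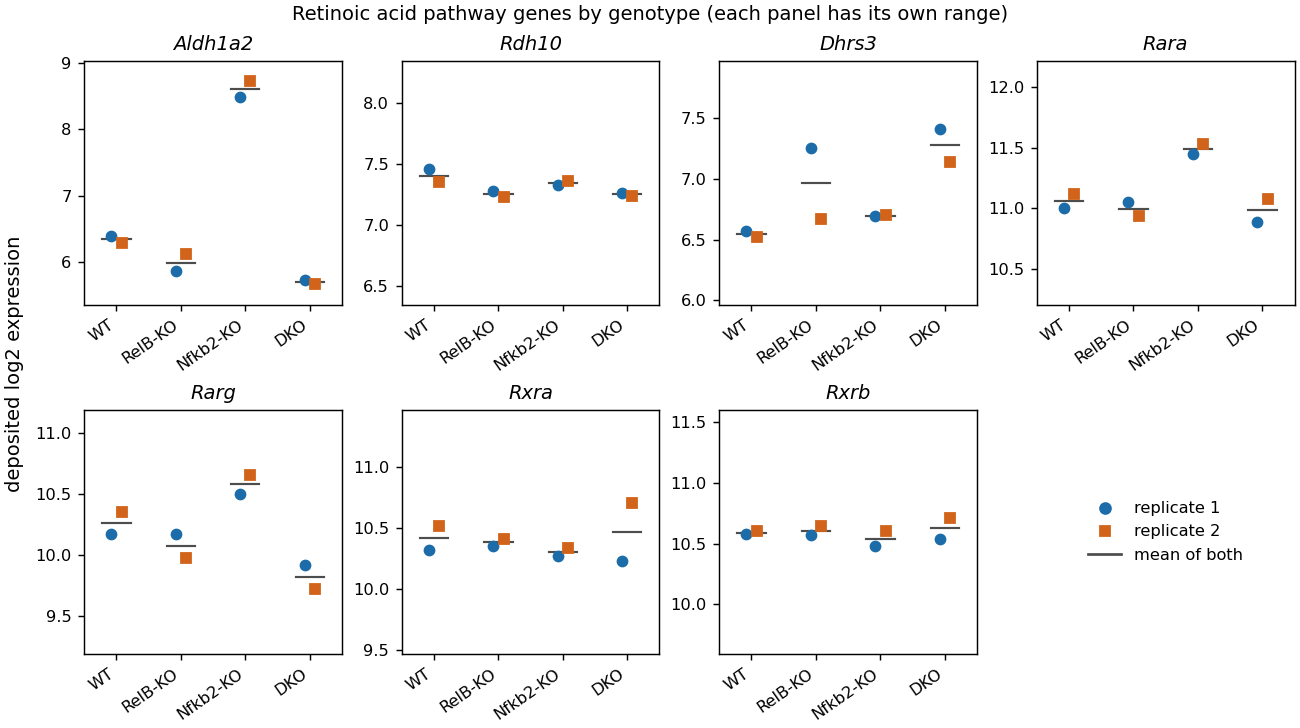
Deposited log2 expression (vertical axis, its own range in each panel) of the 7 genes in the 8 libraries, by genotype. Circles are replicate 1, squares replicate 2 and bars the mean of both; Aldh1a2 is at 8.49 and 8.72 in Nfkb2-KO and at most 6.40 elsewhere, while Rxrb stays between 10.48 and 10.71.

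Aldh1a2 was the only Aldh1a gene measured above the floor of these values. Aldh1a1 was between -2.09 and -2.08 log2 and Aldh1a3 between -1.73 and -1.71 in all libraries, under the minimum for testing. The breakdown enzymes were also low and nearly constant: Cyp26a1 lay between 0.67 and 0.70, Cyp26b1 between 1.22 and 1.29, and Cyp26c1 between -0.27 and -0.23. At that level these values cannot show a difference.

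Rdh10, the retinol dehydrogenase that supplies retinal (chromosome 1, 16105774 to 16133734, plus strand), was nearly level. Its log2 values were 7.46 and 7.35 in WT, 7.28 and 7.23 in RelB-KO, 7.33 and 7.36 in Nfkb2-KO, and 7.26 and 7.24 in DKO. WT was highest on average, and Nfkb2-KO overlapped WT with a difference of -0.06 ± 0.08. RelB-KO and DKO were each below WT in both libraries, by 0.15 ± 0.08 (adjusted p = 0.9999 and 0.8613, limma), and neither passed. Both differences were -0.10 without WT replicate 1, and that of Nfkb2-KO was -0.01.

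Dhrs3, the retinal reductase that works against Rdh10 and is itself commonly induced by retinoic acid (chromosome 4, 144892827 to 144928209, plus strand), ran in another order. Its log2 values were 6.57 and 6.52 in WT, 7.25 and 6.67 in RelB-KO, 6.69 and 6.70 in Nfkb2-KO, and 7.41 and 7.14 in DKO. DKO and replicate 1 of RelB-KO were high, and the 2 RelB-KO libraries differed from each other by more than the WT and Nfkb2-KO means did. DKO exceeded WT by 0.73 ± 0.19 (1.66-fold), with no overlap, but did not pass (adjusted p = 0.8613, limma; unadjusted p = 0.007937; adjusted p = 0.1647 with the block). The authors' deposited table gives 0.840 with an adjusted p of 0.001741. RelB-KO exceeded WT by 0.42 ± 0.19 (adjusted p = 0.9999, limma), and by 0.12 without RelB-KO replicate 1 or 0.71 without RelB-KO replicate 2. Without WT replicate 1 the differences from WT were 0.75 in DKO, 0.44 in RelB-KO and 0.17 in Nfkb2-KO. As a description, Nfkb2-KO exceeded WT by 0.15 ± 0.19, and DKO exceeded Nfkb2-KO by 0.58 ± 0.19. DKO, the genotype with the least Aldh1a2, had the most Dhrs3. Nfkb2-KO, with the most Aldh1a2, did not have the least Dhrs3: its mean was 6.69, against 6.55 in WT.

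Rara, the retinoic acid receptor alpha (chromosome 11, 98927818 to 98974942, plus strand, overlapping Gm22061), was the most abundant of the 7 genes. Its log2 values were 11.00 and 11.12 in WT, 11.05 and 10.94 in RelB-KO, 11.45 and 11.53 in Nfkb2-KO, and 10.89 and 11.08 in DKO. Both Nfkb2-KO libraries were above all 6 others, which overlapped one another. The Nfkb2-KO mean was 0.44 ± 0.10 above WT (1.35-fold) and DKO was 0.50 ± 0.10 below Nfkb2-KO, while DKO and WT differed by -0.07 ± 0.10 (adjusted p = 0.9589, limma). Without WT replicate 1 the excess over WT was 0.37, and DKO and RelB-KO differed from WT by -0.13 and -0.12. The authors' deposited table gives 0.467 for Nfkb2-KO against WT.

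Rarg, the retinoic acid receptor gamma (chromosome 15, 102234938 to 102257517, minus strand), had log2 values of 10.17 and 10.35 in WT, 10.17 and 9.98 in RelB-KO, 10.50 and 10.66 in Nfkb2-KO, and 9.92 and 9.72 in DKO. Nfkb2-KO was again highest, DKO was lowest with no overlap with any other genotype, and WT replicate 1 met RelB-KO replicate 1 at the same rounded value. Nfkb2-KO was 0.32 ± 0.12 above WT (1.25-fold), and DKO was 0.76 ± 0.12 below Nfkb2-KO (1.69-fold). DKO was 0.44 ± 0.12 below WT without passing (adjusted p = 0.8613, limma; unadjusted p = 0.00887; adjusted p = 0.2349 with the block). Without WT replicate 1 the excess of Nfkb2-KO over WT was 0.23, and DKO and RelB-KO differed from WT by -0.53 and -0.28. Rarb, the third receptor and itself a classical target of retinoic acid, lay between 1.48 and 1.57 in all libraries.

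Rxra (chromosome 2, 27676440 to 27762957, plus strand) and Rxrb (chromosome 17, 34031812 to 34038399, plus strand) encode the shared dimer partners and showed little difference between genotypes. Rxra was 10.32 and 10.51 in WT, 10.35 and 10.41 in RelB-KO, 10.27 and 10.33 in Nfkb2-KO, and 10.23 and 10.70 in DKO. Rxrb was 10.58 and 10.60 in WT, 10.57 and 10.64 in RelB-KO, 10.48 and 10.60 in Nfkb2-KO, and 10.54 and 10.71 in DKO. For Rxra the 2 DKO libraries lay on both sides of all the others, and for Rxrb all genotypes overlapped. Rxra differed between Nfkb2-KO and WT by -0.12 ± 0.16 and Rxrb by -0.05 ± 0.09. Without WT replicate 1 these were -0.21 and -0.06, and RelB-KO and DKO differed from WT by -0.13 and -0.05 for Rxra and by at most 0.02 for Rxrb. The remaining family member Rxrg is listed at 0 in every library.

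The 7 genes can be ordered by level only after allowing for transcript length. Per kilobase of annotated exon, on the unlogged scale, the WT mean was 488.5 for Rara, 387.9 for Rxrb, 288.9 for Rarg and 250.8 for Rxra, against 40.74 for Rdh10, 35.94 for Aldh1a2 and 31.92 for Dhrs3. The receptors were thus above the enzymes of retinal in WT. This division treats the values as not yet scaled by length. Were they RPKM as the header says, the log2 values themselves would give the order, and the 4 receptors would still be above the 3 enzymes.

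Counts over the 7 genes are set beside shares of all 13797 genes tested. Between Nfkb2-KO and WT, 4 of the 7 had both libraries above both WT libraries (Aldh1a2, Dhrs3, Rara and Rarg) and 0 had both below, where 21.6% and 20.9% of all genes did. The share called at an adjusted p under 0.05 in that comparison was 0.341% of all genes, and 2.91% with the replicate block. Between DKO and Nfkb2-KO, 1 of 7 was higher in both libraries (Dhrs3) and 4 were lower (Aldh1a2, Rara, Rarg and Rdh10), where 17.4% and 17.8% of all genes were, with 0.768% of all genes called and 5.02% with the block. Those 2 comparisons share the Nfkb2-KO libraries and were used in choosing Aldh1a2, so nothing is read from these counts.

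In the other comparisons limma called 0 of the 7 genes, with and without the block. Aldh1a2 is among the 7, and the WT and DKO libraries also entered its choice. Between RelB-KO and WT, 1 of 7 had an unadjusted p under 0.05 (Aldh1a2), as did 1.24% of all genes, and 0.00725% of all genes were called (0.0145% with the block). For that pair 1 of 7 was higher in both libraries and 3 were lower, against 9.63% and 11.0% of all genes. Between DKO and WT, 3 of 7 had an unadjusted p under 0.05 (Aldh1a2, Dhrs3 and Rarg), as did 5.18% of all genes. Of all genes 0.0145% were called (0.0652% with the block). Of the 7, 1 was higher and 3 lower in both libraries, against 16.6% and 17.6%. Between DKO and RelB-KO, 1 of 7 had an unadjusted p under 0.05 (Aldh1a2), as did 2.88% of all genes, with 0.00725% called (0.0145% with the block). Of the 7, 0 were higher and 2 lower, against 13.2% and 14.3%. The median difference of all genes rounded to 0 in each of these comparisons, and that of the 7 was -0.06 for RelB-KO and -0.07 for DKO against WT.

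**Figure D2:**
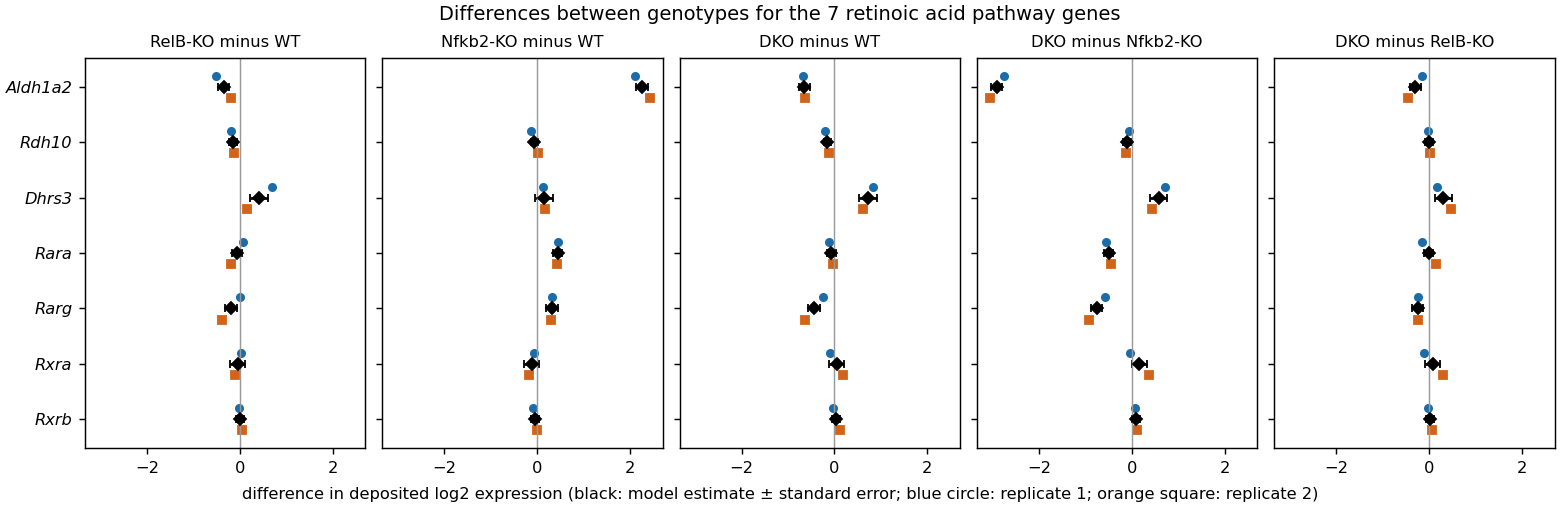
Difference in deposited log2 expression (horizontal axis) for the 7 genes in 5 comparisons, 1 panel each. Black diamonds with bars are the model estimate ± SE, circles replicate 1 and squares replicate 2; Aldh1a2 stands at 2.26 for Nfkb2-KO minus WT and at -2.91 for DKO minus Nfkb2-KO, and at -0.65 to -0.30 in the other 3 panels.

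Outside the 7 genes, the retinoid carriers Stra6, Crabp2 and Fabp5 had their highest means in Nfkb2-KO. In all, 69 other genes of the pathway are in the table, 9 of them listed at 0 in all libraries, and 48 were tested. Without the replicate block 0 of the 48 were called in any comparison (limma). With an unadjusted p under 0.05 there were 6 of 48 in Nfkb2-KO against WT, 6 in DKO against Nfkb2-KO, 3 in DKO against WT, 1 in DKO against RelB-KO and 0 in RelB-KO against WT. Of all tested genes, 10.7%, 9.86%, 5.18%, 2.88% and 1.24% were under it in these comparisons, so the first 2 counts are near the background. With the block, 2 were called higher in Nfkb2-KO than in WT (Stra6 and Fabp5), and 1 higher (Pparg) and 3 lower (Stra6, Fabp5 and Nrip1) in DKO than in Nfkb2-KO, where 2.91% and 5.02% of all genes were called in either direction. The difference between the effects of Nfkb2 loss with and without RelB called 0 of the 48 with either model, with 2 at an unadjusted p under 0.05 (4.45% of all genes), where 0.00725% of all genes were called and 0.471% with the block.

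Stra6 was at 5.85 and 6.01 in WT, 5.99 and 6.02 in RelB-KO, 6.63 and 7.28 in Nfkb2-KO, and 5.82 and 6.28 in DKO. Both Nfkb2-KO libraries were above all others, and the other 3 genotypes overlapped. The difference from WT was 1.03 ± 0.24 (2.04-fold; adjusted p = 0.2127, limma, and 0.007289 with the block, where the SE was 0.14). For Nfkb2-KO against WT the authors' deposited table gives 1.248 with an adjusted p of 3.03e-09. DKO was 0.91 ± 0.24 below Nfkb2-KO (adjusted p = 0.1992, limma, and 0.007523 with the block). The change in the effect of Nfkb2 loss when RelB was absent was -0.99 ± 0.33 (adjusted p = 0.9998, limma, and 0.08903 with the block), which did not pass.

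Fabp5 delivers retinoic acid to PPAR-type receptors and also carries fatty acids. It was at 9.33 and 9.94 in WT, 9.39 and 9.99 in RelB-KO, 9.88 and 10.64 in Nfkb2-KO, and 9.58 and 10.24 in DKO. Replicate 2 was the higher in every genotype, and Nfkb2-KO was highest within each replicate number. The difference between Nfkb2-KO and WT was 0.62, with an SE of 0.37 without the block (adjusted p = 0.6446, limma) and 0.07 with it (adjusted p = 0.004433). DKO was 0.35 below Nfkb2-KO (adjusted p = 0.9494, and 0.0343 with the block, limma). For Nfkb2-KO against WT the authors' deposited table gives 0.715 with an adjusted p of 8.78e-08.

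Crabp2, which delivers retinoic acid to the retinoic acid receptors and is often induced by it, was at 6.63 and 6.39 in WT, 6.23 and 6.33 in RelB-KO, 6.88 and 7.24 in Nfkb2-KO, and 6.29 and 6.83 in DKO. Nfkb2-KO was again highest with no overlap with another genotype. Its excess over WT of 0.55 ± 0.20 did not pass in either model (adjusted p = 0.4157, and 0.1161 with the block, limma). For that comparison the authors' deposited table gives 0.521 with an adjusted p of 0.06009. With the block and without WT replicate 1, the count called between Nfkb2-KO and WT was 3, with Crabp2 beside Stra6 and Fabp5. Leaving out that library without the block gave differences of 0.95 for Stra6, 0.32 for Fabp5 and 0.67 for Crabp2.

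**Figure D3:**
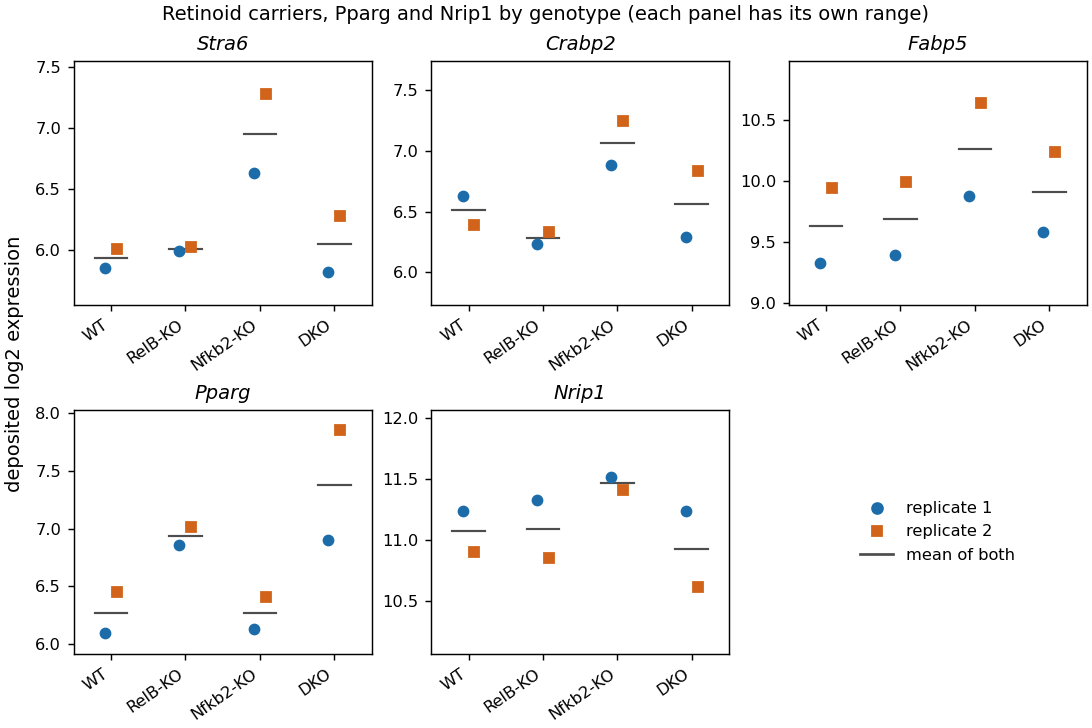
Deposited log2 expression (vertical axis, its own range in each panel) of the 3 retinoid carriers Stra6, Crabp2 and Fabp5, the RXR partner Pparg and the co-repressor Nrip1 in the 8 libraries. Circles are replicate 1, squares replicate 2 and bars the mean of both; Stra6 reaches 6.63 and 7.28 in Nfkb2-KO, and Pparg is higher in both RelB-KO and both DKO libraries than in any WT or Nfkb2-KO library.

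Pparg, a fatty acid receptor that dimerises with retinoid X receptors, was higher in the libraries without RelB. It was at 6.09 and 6.45 in WT, 6.86 and 7.01 in RelB-KO, 6.13 and 6.41 in Nfkb2-KO, and 6.90 and 7.85 in DKO. All 4 libraries without RelB were above all 4 with it. DKO exceeded Nfkb2-KO by 1.11 ± 0.30 (adjusted p = 0.2323, limma, and 0.007276 with the block). The excess over WT was 1.10 ± 0.30 in DKO (adjusted p = 0.8613, and 0.07742 with the block) and 0.66 ± 0.30 in RelB-KO (adjusted p = 0.9999 in both, limma), or 0.92 and 0.48 without WT replicate 1. The authors' deposited table gives 1.268 (adjusted p = 9.82e-09) and 0.794 (adjusted p = 0.02045) for these 2 comparisons with WT.

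Nrip1, a co-repressor recruited by retinoic acid receptors, was at 11.24 and 10.90 in WT, 11.33 and 10.85 in RelB-KO, 11.52 and 11.41 in Nfkb2-KO, and 11.24 and 10.61 in DKO. It was highest in the Nfkb2-KO libraries, and DKO was 0.54 ± 0.25 below them (adjusted p = 0.5705, limma, and 0.03042 with the block). For Nfkb2-KO against WT the authors' deposited table gives 0.408 with an adjusted p of 0.03814. The co-repressor Ncor1 and the co-activators Ncoa1, Ncoa2 and Ncoa3 were not called in any comparison with either model.

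Genes known to respond to retinoic acid were split in direction. Of 16 measured, Dhrs3, Stra6 and Crabp2 among them, 8 were higher and 8 lower in Nfkb2-KO than in WT, with a median difference rounding to 0, as for all genes. The gut-homing genes gave no call: Itgb7, the integrin beta 7 chain, was at 12.86 and 13.07 in WT and 12.58 and 12.71 in Nfkb2-KO, a difference of -0.32 ± 0.10 (adjusted p = 0.3435, limma, and 0.09671 with the block), or -0.43 without WT replicate 1. Ccr9, the gut-homing chemokine receptor, stayed between 3.09 and 3.20 in all libraries. The authors' deposited table gives -0.339 for Itgb7 with an adjusted p of 0.02259. Of 17 measured genes of the retinol-to-retinal step, 6 were positive and 11 negative between Nfkb2-KO and WT (median -0.01). For the 12 receptors and RXR partners the median was -0.03, with 4 positive and 8 negative.

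Because dendritic cells are a known source of Aldh1a2, their markers are given beside it. In bulk RNA, fewer cells of a type and less RNA per cell cannot be told apart. Of 13 dendritic cell markers in the table, 9 were tested. Clec9a is listed at 0 in all libraries. Itgax lay between -0.27 and -0.25 log2 in all libraries, Batf3 between -0.98 and -0.97 and Siglech between -1.73 and -1.72. These defining markers were thus at or near the floor, where the values cannot show a difference between genotypes. The summed unlogged level of the list was 6966 to 10870 in WT, 7283 to 7783 in RelB-KO, 10405 to 11142 in Nfkb2-KO and 6529 to 8717 in DKO. The higher WT library lay within the Nfkb2-KO range, and the RelB-KO and DKO libraries lay below it. Ccr7, which T cells also express, and Cd74 made up most of each sum. Ccr7 was at 13.09 and 12.20 in WT replicates 1 and 2, and at 12.35 and 12.37 in Nfkb2-KO. Cd74 was at 10.60 and 10.75 in WT, and at 12.28 and 11.96 in Nfkb2-KO. The higher WT sum thus rests on Ccr7 in WT replicate 1, and the sums do not show how the other markers differ.

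Some markers on the dendritic cell list were high in the same libraries as Aldh1a2, and others were not. Cd74, the invariant chain of class II molecules, was called higher in Nfkb2-KO than in WT by 1.45 ± 0.17 (adjusted p = 0.04479, limma), 1 of the 9 tested. With the block 4 of the 9 were called higher, Cd74, H2-Ab1, H2-Eb1 and Zbtb46, against 0.341% and 2.91% of all genes called in the models without and with the block. Xcr1, a receptor of cross-presenting dendritic cells, was lower in both Nfkb2-KO libraries than in both WT libraries (-0.16 ± 0.11). Ccr7 differed by -0.28 ± 0.29, and neither Xcr1 nor Ccr7 was called. Flt3 (-0.01 ± 0.02) was not called either. It lay between 0.97 and 1.01 log2 in all libraries, too near the floor to show a difference. Zbtb46, a transcription factor of classical dendritic cells, was at 8.49 and 8.07 in WT, 8.62 and 7.84 in RelB-KO, 9.12 and 9.01 in Nfkb2-KO, and 8.04 and 7.65 in DKO. Its difference of 0.79 ± 0.28 between Nfkb2-KO and WT had an adjusted p of 0.3952 (limma), and 0.02391 with the block. The difference was 0.99 for Zbtb46 and 1.37 for Cd74 without WT replicate 1. In DKO against Nfkb2-KO, 1 of the 9 was called (Cd74, -1.72 ± 0.17, adjusted p = 0.01526, limma) and 5 with the block, against 0.768% and 5.02% of all genes. The part of such cells in the Aldh1a2 values was not tested. Of 7 macrophage and monocyte, 3 B cell, 2 stromal and mesothelial and 2 endothelial markers tested, 0 were called in any comparison with either model.

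Genes with a pattern like that of Aldh1a2 were sought among the 134 other genes whose 4 genotype means spanned at least 1 log2 unit. Likeness was the Pearson correlation over the 8 libraries after centring on the mean of each replicate number. The most alike were Whrn, a scaffold protein (r = 0.992), Slc41a1, a magnesium transporter (0.992), Bmyc, a relative of Myc (0.991), Igsf3, an immunoglobulin-family membrane protein (0.990), and Hspg2, the proteoglycan perlecan (0.986). The most opposite were Itgb3, the integrin beta 3 chain (-0.987), Gzmb, the protease granzyme B (-0.970), Pde2a, a cyclic nucleotide phosphodiesterase (-0.964), Satb1, a chromatin organiser (-0.964), and Tanc2, a scaffold protein (-0.961). Without centring, 4 of those 5 and 3 of those 5 remained among the extremes. The 8 points are 4 genotypes of 2 libraries each and share their normalization, so these coefficients only describe the pattern.

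Igsf3 was close to Aldh1a2 in deposited log2 value as well. It was at 6.60 and 6.68 in WT, 6.32 and 6.20 in RelB-KO, 8.11 and 7.98 in Nfkb2-KO, and 6.19 and 6.16 in DKO. Per kilobase of annotated exon, on the unlogged scale, the WT mean was 11.77 for Igsf3 against 35.94 for Aldh1a2. Slc41a1 followed the same order over a narrower span, from 11.57 in DKO to 12.66 in Nfkb2-KO by genotype mean. Itgb3 ran the other way, at 9.25 and 9.05 in WT, 9.67 and 9.30 in RelB-KO, 8.19 and 8.11 in Nfkb2-KO, and 9.75 and 9.45 in DKO. By the same measure the coefficient with Aldh1a2 was 0.95 for Rara and 0.87 for Rarg. It was 0.44 for Rdh10, -0.51 for Dhrs3, -0.57 for Rxra and -0.75 for Rxrb, whose levels barely differed.

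**Figure D4:**
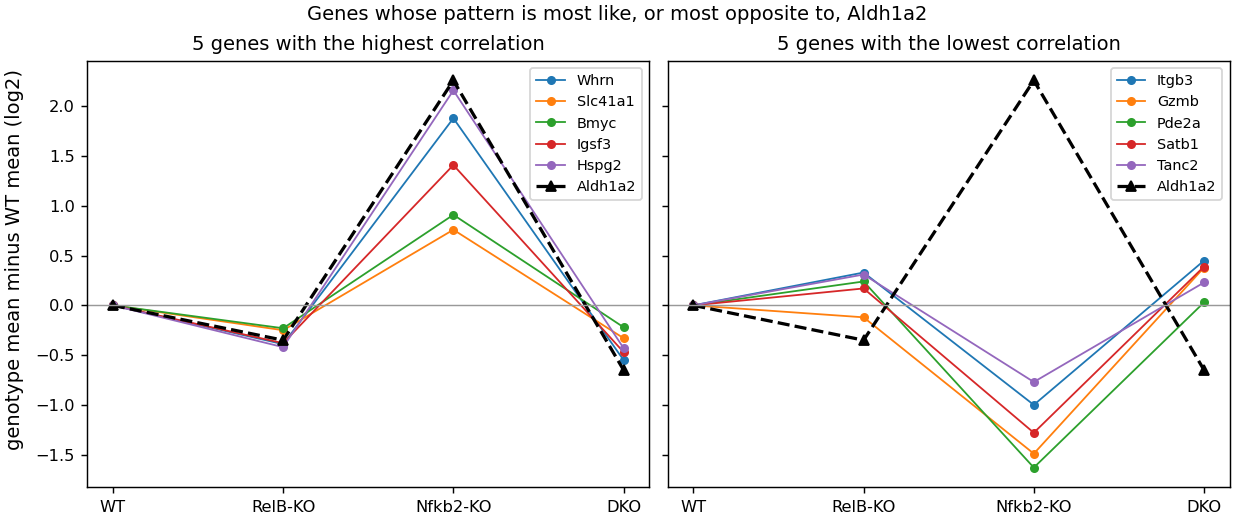
Genotype mean minus WT mean of deposited log2 expression (vertical axis) for the 5 genes with the highest (left) and the 5 with the lowest (right) correlation with Aldh1a2, which is the dashed line in both panels. The 5 on the left are highest in Nfkb2-KO (Hspg2 mean 8.29 against 6.13 in WT), and the 5 on the right are lowest there (Pde2a mean 8.58 against 10.21 in WT).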

How the data were processed

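RNA-seq of 8 Treg libraries, 2 per genotype, was analysed from the authors' deposited table. Per the file headers its values are log2 RPKM, batch corrected. The submitters' processing notes name STAR, DESeq2 1.10.1 and mm10 without roles; counting and batch correction are not given in the sources used here. The authors' log2 fold changes and adjusted p-values against WT, deposited in the same table, are quoted as theirs. Another 8 columns of per-sample z-scores were not used.

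The members and lists were chosen with earlier results of these data known. Of 22432 genes, 6247 listed at 0 in all libraries and 1 with a blank cell were left out, and the 13797 with a mean unlogged value of at least 1 were tested. The design plan covered counts, linear or log2 values; the deposited values are log2, so they were modelled unchanged with limma 3.58.1 (R 4.3.3), with the 4 genotypes in 1 fit, a variance trend and 4 residual degrees of freedom. A call is an adjusted p (Benjamini-Hochberg over all tested genes) under 0.05. Replicate numbers were checked for pairing. Replicate 1 minus replicate 2 correlated between genotypes across genes at 0.81 to 0.89 in the 6 pairs of genotypes, so same-numbered libraries deviate together, and a model with replicate number as a block (3 residual degrees of freedom) is quoted where it changes a call. Named genes are the 7 members, pathway genes called in any comparison with either model, members of their families, and the 5 genes most and least correlated with Aldh1a2. Itgb7, Ccr9 and the marker genes were named after their values were seen. The scripts were tested on simulated data. Alternatives were the block, each library left out, a pseudocount of 1, no filter or a minimum of 10, quantile normalization, no variance trend, and fits of 2 genotypes. Loci are from the GENCODE annotation of mm10, and promoter windows from RefSeq (GRCm38.p6).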

Additional observations from a re-analysis of the deposited data

Results flagged for a closer look

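For 3 of the 55 tested retinoic acid genes (5.45%), and for 3.06% of all tested genes, both libraries moved one way on loss of Nfkb2 where RelB was present and the opposite way where it was absent. Aldh1a2 was 2.26 log2 units higher in Nfkb2-KO than in WT and 0.30 lower in DKO than in RelB-KO (-0.30), a difference between the effects of -2.56. Rarg was 0.32 higher and 0.25 lower (-0.25), a difference of -0.57. Neither difference was tested, since these comparisons chose Aldh1a2 and with it the gene group. Aldh1a2 is among the 3 genes counted, so nothing is read from their share beside that of all genes. Ccr9, at values between 3.09 and 3.20, gave effects of -0.06 and 0.03 and a difference of 0.09, which did not pass (adjusted p = 0.9998, limma).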

How the results depend on the processing

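The count of other pathway genes called moved only with the replicate block. For Nfkb2-KO minus WT it was 0 without the block, 2 with it and 3 with the block and without WT replicate 1, an alternative chosen after seeing the data. For DKO minus Nfkb2-KO it was 0, 4 and 6; Crabp2 and Itgae were the genes added. The block changed no other count of calls of these genes. Of 546 values of the 42 member differences under alternatives, 18 changed sign, all on leaving out 1 library, in 14 differences: 9 tested ones that were not called and 5 given as description. Leaving out 1 library moved Rdh10 for DKO minus RelB-KO from -0.02 to 0.02, and Rara from -0.17 to 0.03 for DKO minus WT and from -0.11 to 0.09 for DKO minus RelB-KO. Rxra ran from -0.13 to 0.06 for RelB-KO minus WT, from -0.19 to 0.28 for DKO minus WT and from -0.15 to 0.32 for DKO minus RelB-KO. Rxrb ran from -0.02 to 0.05, from -0.05 to 0.12 and from -0.06 to 0.11 in the same comparisons. Among the described differences, Rxra for DKO minus Nfkb2-KO ran from -0.07 to 0.40 and Rxrb for Nfkb2-KO minus WT from -0.11 to 0.01. The differences between effects ran from -0.13 to 0.46 for Dhrs3, -0.04 to 0.44 for Rxra and -0.01 to 0.16 for Rxrb. The cause was not tested. The Aldh1a2 difference between Nfkb2-KO and WT stayed between 2.15 and 2.38 under all alternatives run. With no counts, the precision of single values cannot be given, and genes at the floor cannot show a difference.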
